A study of Homo sapiens with 18 samples.

Results

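Laminins are heterotrimers of an α, a β and a γ chain that assemble in the cell and polymerise in the basement membrane, where they bind integrins and dystroglycan. Laminin-332, which holds the chains α3 and β3, anchors epithelia through the hemidesmosome and its integrin α6β4, while laminin-511, built of α5, β1 and γ1, is a common laminin of mature epithelial basement membranes and laminin-411, with α4, is best known from vessels. The 7 genes described here encode the α chains LAMA3, LAMA4 and LAMA5, the β chains LAMB1, LAMB2 and LAMB3, and the γ chain LAMC1, out of 58302 genes in the expression table. They were taken as a named list, matched by symbol to their Ensembl identifiers, and all 7 were found. LAMA3 and LAMB3 encode chains of laminin-332, and the other 5 encode chains that laminin-332 does not hold. On GRCh38 the genes lie apart: LAMA3 at chr18:23689443-23956222 (+), LAMA4 at chr6:112108760-112254939 (-), LAMA5 at chr20:62307955-62367312 (-), LAMB1 at chr7:107923799-108003255 (-), LAMB2 at chr3:49121114-49133118 (-), LAMB3 at chr1:209614870-209652466 (-) and LAMC1 at chr1:183023460-183145592 (+).

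The study used PANC-1, a cell line from a human pancreatic ductal carcinoma, to examine NAT10, the enzyme that writes N4-acetylcytidine (ac4C) into RNA. Control cells (shCtrl) and NAT10 knockdown cells (shNAT10) both carried a lentiviral vector, without an shRNA against NAT10 in the first group and with one in the second. RNA-seq was made from 3 libraries per group, and acRIP-seq, in which RNA fragments are pulled down with an antibody against ac4C, from 3 IP and 3 input libraries per group. The labels call the control vector empty whereas the supplement lists a non-targeting shRNA, and which shRNA against NAT10 was used is not named, so a group may rest on 1 hairpin. Nothing says that the libraries of a group came from separate cultures, so p-values measure only the spread between these libraries, which may be technical. In bulk RNA, fewer cells that express a gene and less RNA per cell cannot be told apart.

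NAT10 itself was measured at 31.6, 27.7 and 28.6 FPKM (fragments scaled by transcript length and by the reads of the library) in the shCtrl libraries and at 7.92, 8.43 and 7.90 in the shNAT10 libraries. The groups did not overlap, and the log2 fold change was -1.84 (SE 0.08, limma, adjusted p = 3.9e-05). The libraries held 15831720 to 23521762 reads on genes. All 6 ductal epithelial markers reached 1 FPKM, with a summed level of 2792 to 3753 FPKM in shCtrl and 1497 to 1678 in shNAT10 cells, a sum carried by the keratins KRT8 and KRT18. EPCAM went the other way, with 4.01 to 5.55 FPKM in shCtrl and 21.1 to 24.2 FPKM in shNAT10 libraries. CDH1 did so too, with 3.36 to 4.83 and 4.95 to 5.77 FPKM. The part of these differences in the results below was not tested. None of the 4 endothelial and none of the 4 blood markers reached 1 FPKM in any library. Of 6 fibroblast markers, COL1A1 and COL3A1 did, and DCN and LUM were at or near 0. The shCtrl replicate 2 library stood apart: relative to its group, genes with a transcript of at least 5 kb lay lower there (median log2 deviation -0.18) and genes under 2 kb higher (0.20). The longest mRNAs of the 7 laminin genes measure 4305 to 11426 bases, and calls on the 7 genes and on the named receptors and hemidesmosome genes that depend on that library are given with and without it.

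Peaks on 3 of the chains are shown first, as examples of the measured regions that later values refer to, and no LAMB3 peak is printed although its peaks had high enrichments. Each lies in the coding sequence and is printed 5′ to 3′ on the mRNA strand, spliced, from GENCODE v29 transcripts on GRCh38. Capitals mark the stretches that match CNNCNNCNNCNN, a C followed by any 2 bases, in 4 repeats, searched on the sense strand only with overlapping matches merged. The first is the strongest peak on the 7 genes, the second their only region listed in both groups, and the others the strongest peak of LAMB2 and of LAMC1.
LAMA3, shNAT10, chr18:23763450-23775867, + strand, exons 8 to 10: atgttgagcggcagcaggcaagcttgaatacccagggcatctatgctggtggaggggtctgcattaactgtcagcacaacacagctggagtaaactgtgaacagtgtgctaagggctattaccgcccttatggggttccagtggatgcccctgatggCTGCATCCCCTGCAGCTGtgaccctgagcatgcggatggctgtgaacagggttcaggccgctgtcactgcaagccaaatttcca
LAMA3, shCtrl, chr18:23953013-23954616, + strand, exons 74 to 75: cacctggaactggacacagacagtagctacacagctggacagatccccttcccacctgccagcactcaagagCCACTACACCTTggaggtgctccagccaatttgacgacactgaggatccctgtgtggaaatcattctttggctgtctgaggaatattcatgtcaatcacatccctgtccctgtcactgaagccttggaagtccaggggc
LAMB2, shCtrl, chr3:49125828-49126084, - strand, exons 18 to 19: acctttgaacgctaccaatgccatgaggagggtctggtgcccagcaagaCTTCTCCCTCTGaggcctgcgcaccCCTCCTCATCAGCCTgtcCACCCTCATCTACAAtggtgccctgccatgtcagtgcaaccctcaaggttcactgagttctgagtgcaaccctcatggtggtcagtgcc
LAMC1, shNAT10, chr1:183117584-183118103, + strand, exons 10 to 11: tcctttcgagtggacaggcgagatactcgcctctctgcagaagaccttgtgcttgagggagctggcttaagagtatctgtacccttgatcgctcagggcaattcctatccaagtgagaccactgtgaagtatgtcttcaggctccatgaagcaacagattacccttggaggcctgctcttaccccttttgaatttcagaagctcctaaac

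The chains were present at very different levels. Per length, LAMB1 was the highest of the 7 mRNAs in shCtrl cells, with a mean of 92.1 ± 9.09 FPKM (SD, n = 3), followed by LAMA5 (57.2 ± 5.94), LAMC1 (42.2 ± 8.43) and LAMB2 (21.8 ± 1.29). LAMA3 (0.723 ± 0.130), LAMB3 (0.664 ± 0.190) and LAMA4 (0.573 ± 0.00809) stood far below. LAMA5 and LAMC1 differed by more than the SD of either, while LAMB3 differed from LAMA3 and from LAMA4 by less than its own SD. In shNAT10 cells LAMB1 (80.8 ± 0.275), LAMA5 (66.0 ± 3.11) and LAMC1 (61.9 ± 2.27) were closer together, above LAMB2 at 17.8 ± 0.807. Of the summed FPKM of the 7 genes, LAMB1 made up 42.8% in shCtrl and 35.2% in shNAT10 cells, and LAMC1 19.5% and 27.0%. The transcripts of β1, α5 and γ1, the chains of laminin-511, were thus the 3 most abundant of the list in both groups, and those of the α3 and β3 chains rested on 34 to 209 reads per library.

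**Figure D1:**
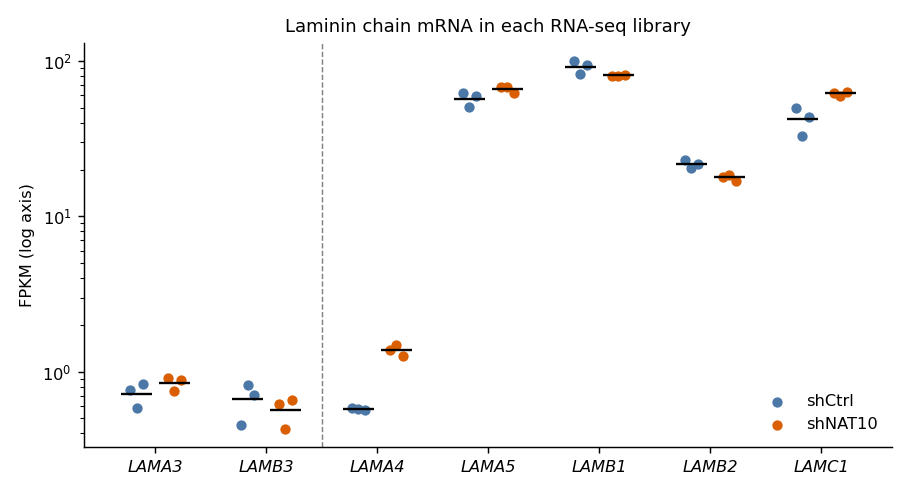
FPKM (log axis) of the 7 laminin chains in each of the 3 shCtrl (blue) and 3 shNAT10 (orange) libraries, with the group mean as a black bar and the laminin-332 chains left of the dashed line. LAMA4 and LAMC1 lie higher in every shNAT10 library, whereas the groups overlap for LAMA3 and LAMB3.

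Among the α chains, LAMA4 rose. Its level was 0.581, 0.574 and 0.565 FPKM in shCtrl and 1.38, 1.49 and 1.26 FPKM in shNAT10 libraries, from 66 to 87 and 143 to 189 reads. The groups did not overlap, and the log2 fold change was 1.13 (SE 0.20, adjusted p = 0.0048). LAMA4 passed the expression filter of 1 FPKM in 3 libraries only through its shNAT10 libraries and so had to differ, but it also passed the test without the filter (adjusted p = 0.010). The value is on the log2(FPKM + 0.1) scale, which understates the change of low genes. On the recovered reads limma's voom gave 1.26 (adjusted p = 0.00017). Annotated exons of LAMA4 share 206 bases with an antisense gene, and the strand setting of the counting is not given in the sources used here.

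LAMA5, the α chain of laminin-511, was measured at 61.9, 50.5 and 59.3 FPKM in shCtrl and at 68.1, 67.6 and 62.4 FPKM in shNAT10 libraries. The groups did not overlap, by a narrow margin, and the log2 fold change of 0.21 (SE 0.09) did not pass the test (adjusted p = 0.10). Without shCtrl replicate 2 it was 0.12 (adjusted p = 0.096), and after libraries were corrected by splines for the length and GC content of transcripts it was 0.21 and passed (adjusted p = 0.0094). LAMA5 shares 362 exonic bases with antisense genes.

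LAMA3, the α chain of laminin-332, was read at 0.757, 0.579 and 0.833 FPKM in shCtrl and at 0.906, 0.748 and 0.881 FPKM in shNAT10 libraries. The groups overlapped, and the gene did not pass the filter. Without the filter its log2 fold change was 0.21 (SE 0.23, adjusted p = 0.60), from 125 to 209 reads per library. A difference of this size did not stand out from the spread between libraries. Without shCtrl replicate 2 as well, the log2 fold change was 0.08.

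The β chains gave smaller differences. LAMB2, which replaces β1 in laminin-521, was at 23.2, 20.6 and 21.7 FPKM in shCtrl and at 18.0, 18.5 and 17.0 FPKM in shNAT10 libraries, and every shNAT10 library lay below every shCtrl library. It fell by 0.29 on the log2 scale (SE 0.07, adjusted p = 0.019). The call was lost with values rescaled to TPM (-0.18, adjusted p = 0.17) and without shCtrl replicate 3 or any 1 shNAT10 library (adjusted p from 0.051 to 0.085). A pseudogene of it, LAMB2P1, is annotated, and how reads common to both were counted was not tested.

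LAMB1 was at 99.97, 82.2 and 94.2 FPKM in shCtrl and at 80.5, 80.7 and 81.1 FPKM in shNAT10 libraries. The shCtrl replicate 2 library lay next to the shNAT10 values, and the log2 fold change of -0.18 (SE 0.08) did not pass (adjusted p = 0.11). Without that library LAMB1 was lower at -0.26 (adjusted p = 0.0022), and with the length and GC correction at -0.30 (adjusted p = 0.00055). Its exons share 291 bases with antisense genes. LAMB3, the β chain of laminin-332, was at 0.455, 0.826 and 0.711 FPKM in shCtrl and at 0.616, 0.430 and 0.657 FPKM in shNAT10 libraries, from 34 to 72 reads. The groups overlapped, and without the filter the log2 fold change was -0.18 (SE 0.31, adjusted p = 0.75), and -0.02 when shCtrl replicate 2 was left out as well.

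LAMC1 encodes γ1, the γ chain of most laminins, and rose. Its level was 49.7, 33.1 and 43.9 FPKM in shCtrl and 62.7, 59.3 and 63.6 FPKM in shNAT10 libraries, with no overlap. The log2 fold change was 0.57 (SE 0.14, adjusted p = 0.018). The lowest value was that of shCtrl replicate 2, without which the change was 0.40 (adjusted p = 0.0016), and the call was lost without shNAT10 replicate 1 (adjusted p = 0.061) or 3 (adjusted p = 0.063). Of the 7 chains, 5 passed the filter and were tested over all genes. Of these, 2 were higher, LAMA4 and LAMC1, and 1 was lower, LAMB2. Of all 12982 genes tested, 20.8% were higher and 21.2% were lower at the same threshold. Every shNAT10 library lay above every shCtrl library for 27.9% of the genes tested and below for 28.6%. Among the chains tested, LAMA4, LAMA5 and LAMC1 had that first pattern, which the filter fixed for LAMA4, and LAMB1 and LAMB2 had the second.

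**Figure D2:**
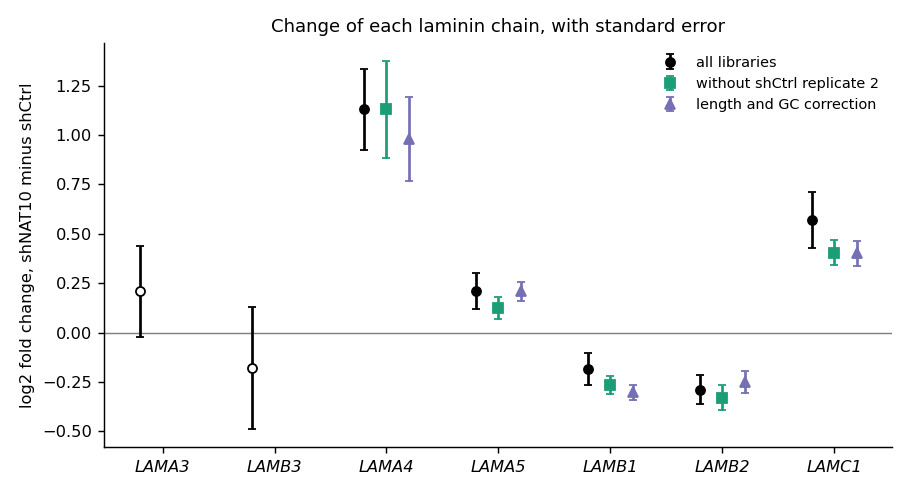
Log2 fold change (shNAT10 minus shCtrl) of each laminin chain with its standard error, with all libraries (circles), without shCtrl replicate 2 (squares) and after the length and GC correction (triangles). Open circles are LAMA3 and LAMB3, fitted without the expression filter. LAMB1 moves from -0.18 to -0.26 and -0.30, and LAMC1 from 0.57 to 0.40 in both alternatives.

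The laminin-332 chains were then set against the others. The mean log2(FPKM + 0.1) of LAMA3 and LAMB3 minus that of the other 5 chains was -4.98, -4.51 and -4.55 for shCtrl replicates 1 to 3, against -4.86, -5.22 and -4.78 for the shNAT10 replicates. The groups overlapped, with a difference of -0.27 on the log2 scale, shNAT10 minus shCtrl. It was -0.42 without shCtrl replicate 1, -0.19 without shCtrl replicate 2 and -0.14 without shNAT10 replicate 2, and -0.17 with a pseudocount of 1. Of the other 5 chains LAMA4 had the largest log2 fold change (1.13), and the rest ranged from -0.29 to 0.57. The difference without LAMA4 was not computed. Chains of one type were compared as log2 ratios within a library. LAMA3 against LAMA4 went from 0.28 ± 0.24 (SD, n = 3) to -0.64 ± 0.23 without overlap, which gives an exact two-sided permutation p of 0.1, the smallest that 3 against 3 allows, and 0.4 after Benjamini-Hochberg adjustment over 4 ratios. This shift was mostly that of LAMA4, with a log2 fold change of 1.13 against 0.21 for LAMA3. LAMA4 passed the expression filter only through its shNAT10 libraries. LAMA3 against LAMA5 was -6.13 in both groups, with SDs of 0.12 and 0.17. LAMB3 against LAMB1 was -6.94 in both (SDs 0.52 and 0.27), and LAMB3 against LAMB2 was -4.87 ± 0.47 and -4.76 ± 0.33. For these 3 ratios the exact permutation p was 0.9, 1 and 0.7.

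LAMA1, LAMA2, LAMB4 and LAMC3 encode chains outside the 7, and none of them passed the expression filter. LAMC3 was at 1.21 ± 0.234 and 0.629 ± 0.113 FPKM and, without the filter, had a log2 fold change of -0.85 (adjusted p = 0.066), while voom on the recovered reads gave -0.96 (adjusted p = 0.0053). LAMA1, LAMA2 and LAMB4 lay under 0.1 FPKM in the mean of both groups. LAMA2 was listed with 1 peak in each group, with a fold enrichment of 198 in shCtrl and 1030 in shNAT10 cells. These peaks did not overlap, and the shNAT10 peak also lay on exons of another annotated gene. Of the coding genes under 0.1 FPKM, 11.3% held a peak in shCtrl and 10.8% in shNAT10 cells. The quartiles of fold enrichment in that class were 76.9 and 947 in shCtrl and 59.2 and 1260 in shNAT10 cells.

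The peak lists give a different view of the same mRNAs. The authors deposited 1 list per group, so the peaks have no replicate check, and no p-value is given for any difference between the lists. The 7 genes held 11 peaks in the shCtrl list and 11 in the shNAT10 list. LAMA3 had 2 and 4 peaks, LAMB3 2 and 2, and LAMC1 3 and 4. LAMB2 had 3 peaks in shCtrl and 0 in shNAT10, LAMA5 1 and 0, LAMB1 0 and 1, and LAMA4 none in either list. The midpoint of all 22 peaks lay in the coding sequence of the longest coding transcript, compared with 61.3% of the shCtrl and 61.7% of the shNAT10 peaks on all coding genes. Coding sequence makes up 61.2% (LAMC1) to 97.0% (LAMA5) of these mRNAs. Of the 22 peaks, 18 matched an annotated transcript without a break. The others were placed by those of their ends that fell on exons of the longest coding transcript.

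A gene's peaks in the 2 lists rarely covered the same bases. On LAMA3, the peak printed above across exons 74 to 75 overlapped a shNAT10 peak by 151 bases, with fold enrichments of IP over input of 33.1 and 31.3. No other peak on the 7 genes overlapped one of the other list, although LAMB3 and LAMC1 had peaks in both. Among all peaks, 25.6% of the shCtrl and 27.4% of the shNAT10 peaks overlapped one of the other list, so most peaks on other genes did not either. Of the genes at 1 FPKM or more with a shCtrl peak, 31.9% had none in shNAT10, as was the case for LAMA5 and LAMB2, and 29.2% of those with a shNAT10 peak had none in shCtrl, as for LAMB1.

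**Figure D3:**
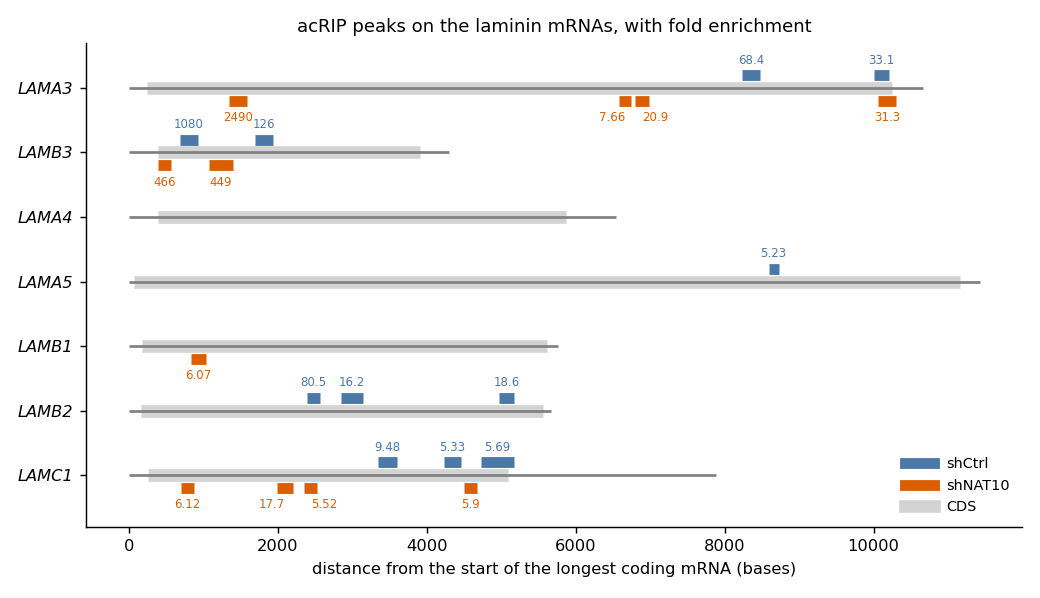
Position of the acRIP peaks along the longest coding mRNA of each laminin chain (bases from its start), with shCtrl peaks in blue above and shNAT10 peaks in orange below the line, coding sequence in grey, and the fold enrichment beside each peak. The LAMA3 peaks of 33.1 and 31.3 near the 3′ end are the only pair that overlaps.

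Peaks on the laminin-332 chains had mostly higher fold enrichments than those on the others, with overlapping ranges. On LAMA3 and LAMB3 it was 33.1 to 1080 in shCtrl and 7.66 to 2490 in shNAT10 cells, and on the other chains 5.23 to 80.5 and 5.52 to 17.7. The strongest, at 2490, lay in exons 8 to 10 of LAMA3, which 2 of its 10 coding transcripts hold, whereas the shCtrl list had no peak there. On LAMB3 the values were 1080 and 126 in shCtrl and 466 and 449 in shNAT10 cells. On LAMB2 they were 80.5, 16.2 and 18.6, and on LAMC1 5.33 to 9.48 in shCtrl and 5.52 to 17.7 in shNAT10 cells.

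These values moved with the level of the gene. In the shCtrl list the median fold enrichment was 313 for coding genes at 0.5 to 1 FPKM, the class of LAMA3 and LAMB3, with quartiles of 79.7 and 1068, and 14.2 for genes at 20 to 100 FPKM, with quartiles of 6.0 and 38.6. In shNAT10 cells the medians were 320 and 13.4. The LAMA3 peaks of 33.1 and 68.4 in shCtrl cells lay below the lower quartile of their class and the LAMB3 peak of 1080 above the upper one. In shNAT10 cells the quartiles of that class were 76.6 and 1070. There the LAMA3 peaks of 7.66, 20.9 and 31.3 lay below the lower quartile and that of 2490 above the upper one. The LAMB3 peaks of 449 and 466 lay between. A peak was held by 24% of the coding genes at 0.5 to 1 FPKM in shCtrl and 26.4% in shNAT10 cells, and by 70.2% and 69.6% of those at 20 to 100 FPKM. LAMA3 and LAMB3 were both among the holders in each list. The part of the level in the difference between the chains was not tested.

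**Figure D4:**
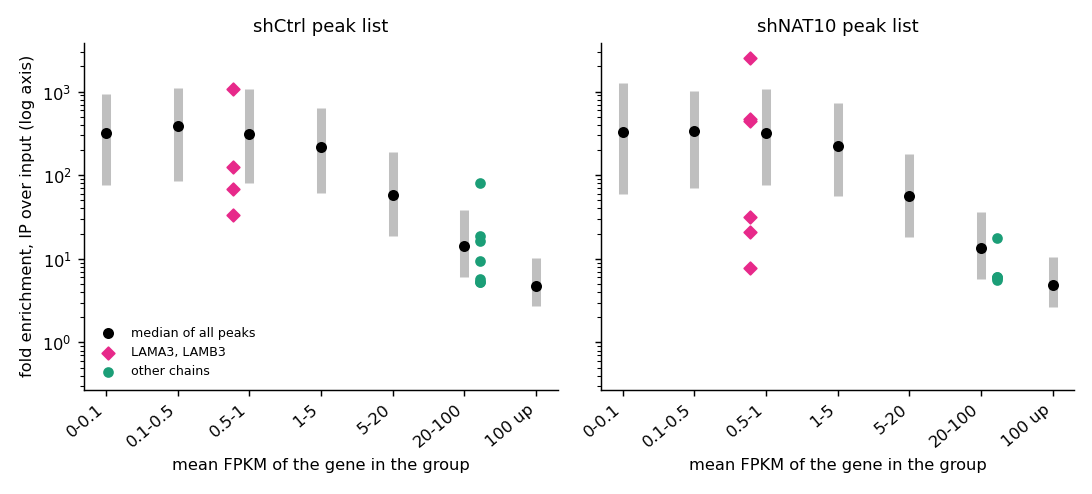
Fold enrichment of IP over input (log axis) against the mean FPKM class of the gene, for the shCtrl list (left) and the shNAT10 list (right), with the median of all peaks on coding genes in black and their quartiles as grey bars. Peaks on LAMA3 and LAMB3 (diamonds) lie in the 0.5 to 1 class, whose shCtrl median is 313, and those on the other chains (circles) in the 20 to 100 class, whose shCtrl median is 14.2.

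In sequence, 11 of the 18 laminin peaks with a continuous match to an annotated transcript of their gene held the repeat of C and any 2 bases. Of all peaks with such a match, 51.9% held it in each list. Among the laminin peaks, 8 of 10 on LAMA3 and LAMB3 held it, and 3 of 8 on the other chains. The LAMB2 peak printed above held 5 overlapping or separate matches, and the LAMC1 peak at 17.7, the strongest of its chain, held 0.

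The genes that work with laminins are given from lists of receptors, hemidesmosome components, basement membrane partners and proteases. Of 14 receptor genes, 12 were tested, 5 were higher, 1 was lower and 6 did not pass, with a median log2 fold change of 0.10 beside -0.01 for all genes tested, of which 20.8% were higher and 21.2% lower. Without shCtrl replicate 2 the number lower was 4, and 3182 of the 12690 genes then tested were lower. The syndecan SDC1, a cell surface proteoglycan, rose from 18.4 ± 1.89 to 38.1 ± 0.896 FPKM (log2 fold change 1.05, adjusted p = 0.00023). DAG1, which encodes dystroglycan, rose by 0.64 on the log2 scale (adjusted p = 0.0011), SDC4 by 0.58 (adjusted p = 0.00066), ITGA3, the α3 subunit that pairs with β1 to bind laminin-332 and laminin-511, by 0.32 (adjusted p = 0.0043), and SDC2 by 0.28 (adjusted p = 0.023). BCAM, a receptor of the laminin α5 chain, fell from 9.005 ± 0.849 to 4.24 ± 0.466 FPKM (log2 fold change -1.07, adjusted p = 0.00057). The β1 integrin ITGB1 was at 0.22 (adjusted p = 0.26), and at 0.05 without shCtrl replicate 2. Without that library ITGA2, a subunit that binds collagen and laminin, was lower at -0.51 (adjusted p = 0.0037, against 0.58 with it), and the tetraspanin CD151 at -0.19 (adjusted p = 0.0497, against 0.074).

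Of the 6 hemidesmosome genes, 5 were tested, 1 was higher and 4 did not pass, with a median of -0.17. Over all genes tested, 20.8% were higher and 21.2% lower. In the list, 2 genes (ITGA6 and CD151) were lower without shCtrl replicate 2, as were 3182 of the 12690 genes then tested. PLEC, the linker plectin, rose by 0.56 on the log2 scale (adjusted p = 0.0043). The integrin that defines the structure gave a log2 fold change of -0.33 for ITGA6 (adjusted p = 0.090) and -0.17 for ITGB4 (adjusted p = 0.091). Without shCtrl replicate 2, ITGA6 was lower at -0.49 (adjusted p = 0.00040), and ITGB4 was at -0.18 (adjusted p = 0.065). COL17A1 lay under 0.1 FPKM.

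Of 15 basement membrane partners, 10 were tested, 4 were higher, 1 was lower and 5 did not pass, with a median of 0.15, beside the same 20.8% and 21.2% over all genes. NTN4, a netrin that binds laminin γ1, rose from 12.01 ± 0.887 to 31.1 ± 0.114 FPKM (log2 fold change 1.37, adjusted p = 6.1e-05). NID1, which links laminin γ1 to the collagen network, rose by 0.69 on the log2 scale (adjusted p = 0.0028), and AGRN, the proteoglycan agrin, by 0.52 (adjusted p = 0.0012). COL4A1, a chain of that network, rose by 0.93 (adjusted p = 0.012), and SPARC, a collagen-binding matrix protein, fell by 1.297 on the log2 scale (adjusted p = 0.0051). COL4A1 passed the filter only through its shNAT10 libraries and so had to differ. SPARC lay at 0.627 to 1.08 FPKM in shNAT10 cells, so its highest shNAT10 library also reached 1 FPKM. Without the filter the adjusted p was 0.030 for COL4A1 and 0.015 for SPARC. Of 8 proteases that act on laminins or can release them, 4 were tested. PLAU (-1.21, adjusted p = 0.00012), BMP1 (-0.53, adjusted p = 0.037) and MMP2 (-0.45, adjusted p = 0.0034) were lower. MMP14 did not pass (0.14, adjusted p = 0.53). The median was -0.49, beside -0.01 for all genes tested, of which 21.2% were lower. BMP1, a metalloprotease that trims laminin chains, passed neither without the filter (adjusted p = 0.088) nor without shCtrl replicate 2 (adjusted p = 0.068). The number of proteases lower was 2 under quantile normalization, TPM, the replicate block and with any 1 library left out.

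**Figure D5:**
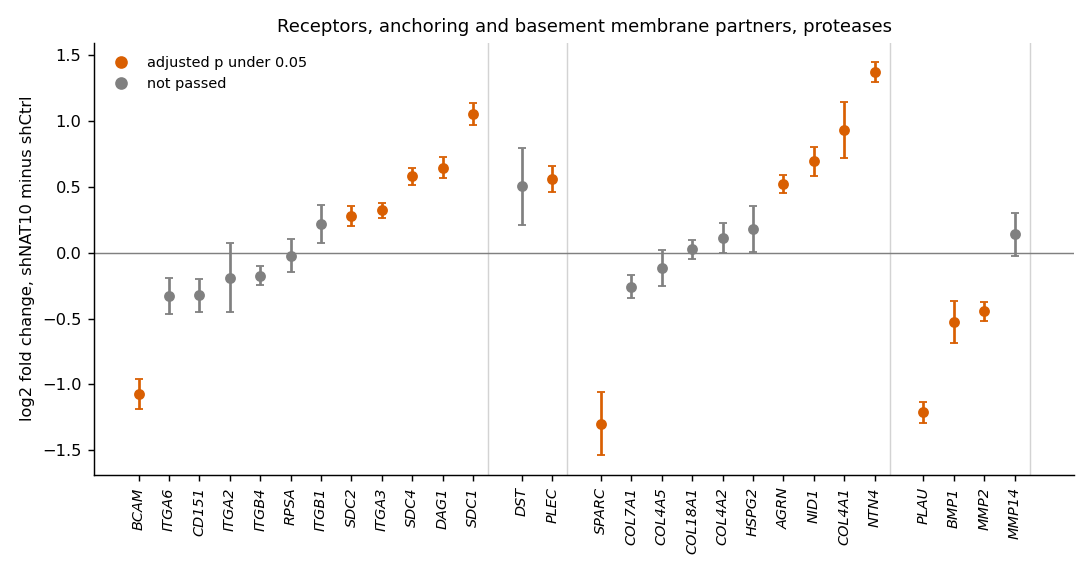
Log2 fold change (shNAT10 minus shCtrl) with standard error of the tested genes of the receptor, hemidesmosome, basement membrane and protease lists (separated by lines, each gene shown once), in orange where the adjusted p was under 0.05. NTN4 (1.37) and SDC1 (1.05) lie highest and SPARC (-1.297) lowest.

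For each chain tested, the 3 protein-coding genes with the most similar pattern over the 6 libraries were found by the root mean square difference of centred log2 values among 7844 genes at a mean of 5 FPKM or more. For LAMC1 these were HIF1A (0.0203), IL18BP (0.0215) and ABLIM1 (0.0267), and for LAMA4 they were C22orf46 (0.0550), ADRA1B (0.0634) and LMNB2 (0.0648). ZBTB14, AP5B1 and METTL15 were nearest to LAMA5, ACLY, POLR3A and COPA to LAMB1, and INTS7, PLXNA3 and SESN1 to LAMB2. The median of this measure over all candidate genes was 0.370 for LAMC1 and 0.584 for LAMA4.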

How the data were processed

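RNA-seq was deposited as FPKM values per gene and library, made by the authors from HTSeq counts; the submitters' processing notes name HISAT2, HTSeq 0.11.0, DESeq2 1.22.2 and the build GRCh38 (hg38). For acRIP-seq the authors deposited 1 peak list per group, which holds for each peak a ratio (fold enrichment, IP over input), a p-value and a score from a caller whose name is not given in the sources used here. GENCODE v29 held 58039 of the 58302 genes. Whole reads were recovered from the FPKM for 99.4% of 29577 genes (within 0.05 reads).

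The fit used log2(FPKM + 0.1) in limma 3.58.1 (R 4.3.3) with trend, and p-values were adjusted by Benjamini-Hochberg, over 12982 genes at 1 FPKM or more in at least 3 libraries. Peaks sharing at least 1 base on a strand were counted as overlapping. Python 3.11.15 was used. The named genes are the 7 chains, NAT10, members of the lists that passed the test or define a list, and the nearest 3 genes per chain. LAMA1, LAMA2, LAMB4, LAMC3, COL17A1, ITGB1, ITGA2, CD151, MMP14, LAMB2P1 and the cell type markers are named besides. The chains and lists were chosen with earlier results of these data known. Some items are not reported here, and laminin-332 is represented by LAMA3 and LAMB3. The steps were tested on simulated data. Intervals between libraries are SDs, and counts of reads limit the precision of LAMA3, LAMB3 and LAMA4. The alternatives tried are given with their effect in the closing section.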

Additional observations from a re-analysis of the deposited data

How the results depend on the processing

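All 128 log2 fold changes of the 7 chains and NAT10 under the alternatives kept their sign. LAMB2 was no longer called in TPM (-0.18), which moved the median of all genes to 0.10, and ranged from -0.33 to -0.24 when 1 library was left out. LAMB1 was called after the length and GC correction (-0.30, or -0.26 with no filter) and ranged from -0.26 to -0.12 with 1 library left out. With no filter and without shCtrl replicate 2 it was -0.26, and in TPM it was -0.08. LAMA5 was called only after the correction (0.21), and LAMC1 ranged from 0.40 to 0.70. The number of chains higher was 1 with FPKM of at least 5, which removes LAMA4, and 3 after the length and GC correction. With 1 library left out it was 0 to 2. The number lower was 0 in TPM, 2 after the correction with or without the filter, and 0 to 2 with 1 library left out. LAMA4 fell below the filter when any shNAT10 library was left out, so it has no value there. Keeping the 50% of peaks enriched most left 4 laminin peaks in shCtrl and 3 in shNAT10, of which LAMA3 and LAMB3 held 3 in shNAT10 and the other chains 1 and 0. Among the 50% with the lowest p-values there were 3 and 3, of which LAMA3 and LAMB3 held 1 and 1, and the other chains 2 and 2. With the replicate block the log2 fold change of LAMC1 was 0.57 (adjusted p = 0.014), and no call on a chain changed. Deviations of same-numbered libraries correlated at -0.04, 0.06 and 0.11, and those of differently numbered libraries at -0.12 to 0.06. The numbers thus gave no clear sign of pairing, which so few values cannot exclude. The difference between the laminin-332 chains and the others ranged from -0.42 to -0.14 with 1 library left out. The voom test, the length and GC corrections and the fit with no filter without shCtrl replicate 2 were chosen after seeing the data. The cause of these changes was not tested.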
